A study of Mus musculus with 2 samples.

Results

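The 40 genes described here carry glucose into the cell and through glycolysis, lactate production and export, the pyruvate dehydrogenase step, the pentose phosphate pathway, the TCA cycle and glycogen breakdown, and they include the transcription factor Hif1a. They were found by gene symbol among the 24081 genes of the deposited table. Of the 40, 39 had a mean of at least 20 reads over both libraries, the level above which a gene is called measured here, as did 10899 genes in all. The exception was Eno1, the main enolase gene, which was listed at 0 in both libraries.

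The libraries were made from regulatory T cells (Treg cells, CD4+ T cells that restrain immune responses under the transcription factor Foxp3) of 5-week-old C57BL/6 mice. The KO library came from Foxp3cre/wt mice with both alleles of a SUMO pathway gene floxed, and the WT library from Foxp3cre/wt mice heterozygous for the same floxed allele. Both groups therefore carried the Cre and a floxed allele, and the study asks whether SUMOylation, the tagging of proteins with small SUMO modifiers, is needed for Treg cells to expand and work. CD4+ YFP+ cells were sorted from lymph nodes and spleen and pooled from 5 to 10 mice per library. The Cre is driven by Foxp3 and was present on 1 of the alleles in these mice, and because cells were pooled a library averages several animals. With 1 library per group, the spread between mice is unknown, so every difference is given as a value without a p-value.

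Glycolysis splits glucose into pyruvate in the cytosol and yields ATP and NADH; lactate dehydrogenase then recycles the NADH, or pyruvate dehydrogenase feeds the carbon to the mitochondrial TCA cycle. The pentose phosphate pathway branches off at glucose-phosphate and supplies NADPH and ribose. Activated conventional T cells rely heavily on glycolysis, which Hif1a and Myc promote, whereas Treg cells are known to lean more on mitochondrial oxidation, and Foxp3 itself restrains glycolysis.

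Reads assigned to genes numbered 23789264 in KO and 11662867 in WT. Levels are given in CPM, reads per 1000000 of the library size after TMM scaling, a factor that centres most genes on an equal level. All 8 Treg markers were present in both libraries, with a summed level of 6777 CPM in KO and 5441 in WT. Of these, 2 were at least 1.5-fold higher in KO (Foxp3, log2 ratio 0.89, and Lrrc32, 1.24) and 2 lower (Ctla4, -0.69, and Ikzf2, -0.66). A list of 12 effector Treg markers, drawn up with earlier results of these data in view, was at least 1.5-fold lower in KO for 12 of 12 genes, at a summed level of 112 CPM in KO and 480.0 in WT. The 8 resting T cell markers summed to 7451 CPM in KO and 5700.2 in WT, with 3 at least 1.5-fold higher and none lower. The 8 proliferation markers summed to 384 in KO and 381 in WT, with 1 at least 1.5-fold higher and 2 lower. Markers of monocytes and macrophages (6 genes) summed to 435 CPM in KO and 482 in WT, with none past 1.5-fold. B cell markers (6 genes) summed to 96.4 in KO and 118 in WT, with 2 lower and none higher. NK cell markers (4 genes) summed to 7.599 CPM in KO and 16.7 in WT, with 2 of the 3 measured lower. Erythroid markers (7 genes) summed to 5.57 CPM in KO and 14.3 in WT. Both measured genes were lower, Alas2 with 93 reads in KO and 115 in WT and Slc4a1 with 30 and 50. The 4 globin genes were at 0 in both libraries. Whether their reads were left out as aligned to several places was not tested. The part of these marker shifts in the results below was not tested. The ratio of KO over WT also moved with GC content across all measured genes, as given further on.

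A ratio is the KO level over the WT level with an exact 95% interval from the read counts, which covers counting error only. Log2 ratios carry a pseudocount of 1 on the scaled counts. A gene is called higher or lower where its log2 ratio passes 1.5-fold. Of the 39 measured members, 1 (Pygm) was higher and 1 (Hif1a) lower in KO, while 7.43% of all measured genes were higher and 5.51% lower. With a log2 ratio of 0.32 or more in size as a looser threshold, 3 members were higher (Hk1, Idh2 and Pygm) and 6 lower (Hk2, Pfkp, Ldhb, Slc16a1, Hif1a and Rpia), where 19.8% of all measured genes were higher and 15.1% lower. Scaled by total reads alone, 2 members were higher and 9 lower at that threshold, where 15.1% of all measured genes were higher and 20.7% lower. At 1.5-fold that scaling gave 1 member higher and 2 lower, with 5.72% of all measured genes higher and 6.95% lower. With a trend on GC content and length removed, 2 members were higher and 7 lower at the looser threshold, where 13.0% of all genes with a transcript were higher and 14.9% lower. With TMM scaling the remaining 30 members, 76.9% of the 39, lay inside that looser threshold, as did 65.1% of all measured genes and 69.6% of those with a mean of at least 100 reads. The members' median log2 ratio was -0.03 and the median of all measured genes 0.01. The central 50% of members spanned -0.16 to 0.06 and that of all measured genes -0.20 to 0.25. In bulk RNA, fewer cells of a type and less RNA per cell cannot be told apart.

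**Figure D1:**
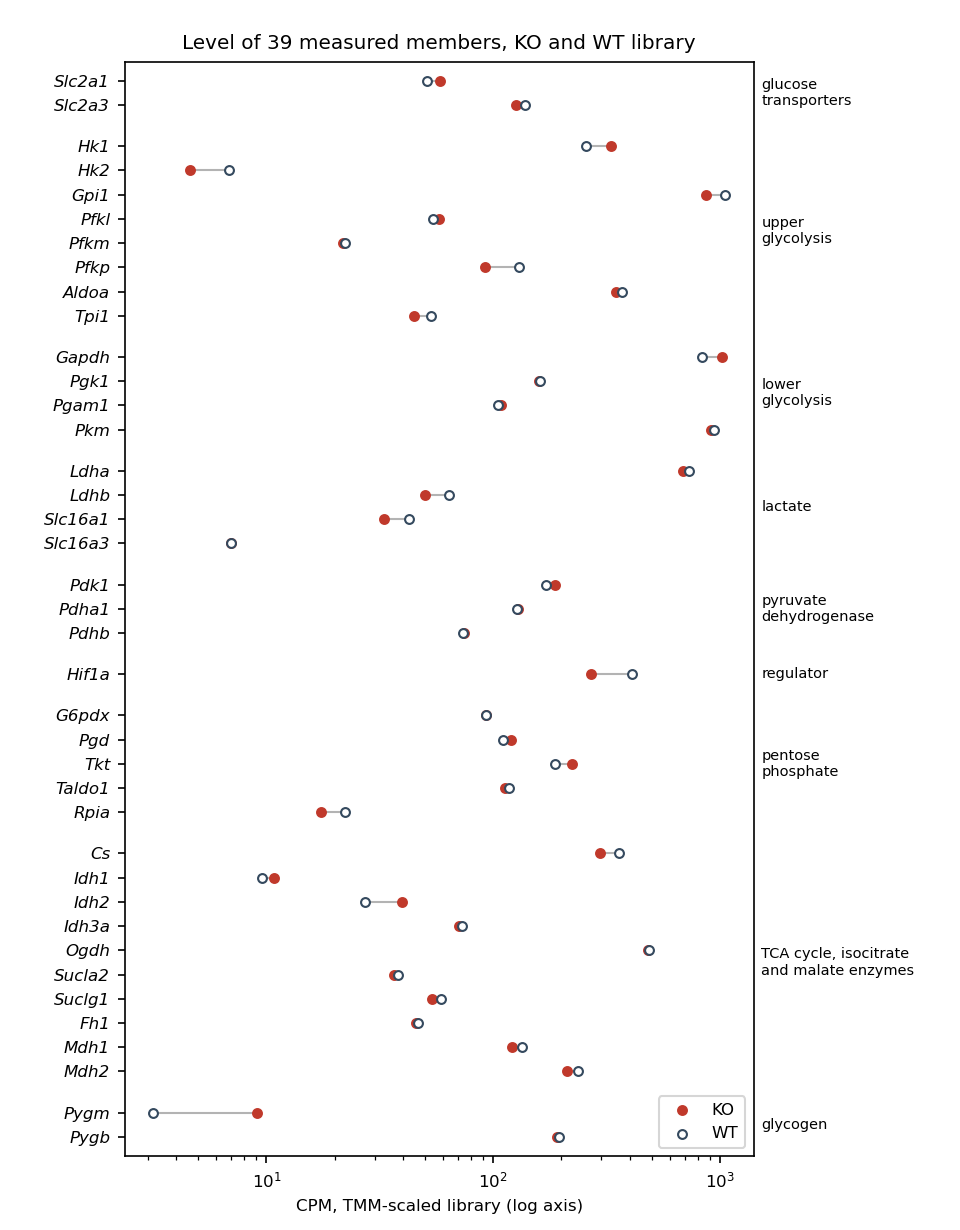
Level of each of the 39 measured members in KO (filled) and WT (open), in CPM of the scaled library on a log axis, grouped by step. Most pairs nearly touch; Pygm (9.11 in KO, 3.17 in WT) and Hif1a (269.5 in KO, 409.6 in WT) stand furthest apart.

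Summed over all 40 genes, the members took 0.753% of gene reads in KO (179040 reads) and 0.822% in WT (95831 reads), a ratio of 0.966 on scaled levels. The sum of the glycolytic enzymes from Hk1 to Pkm was level, with a ratio of 0.999 (0.988 to 1.01), but this rested on Gapdh. Without Gapdh the ratio was 0.936 (0.924 to 0.948). By step, the summed ratio was 0.911 for the upper enzymes, hexokinase to triose phosphate isomerase, and 1.08 from Gapdh down. The latter rested on Gapdh too (ratio 1.24), as Pgk1, Pgam1 and Pkm had ratios of 0.993, 1.03 and 0.969. The summed ratio was 0.917 for lactate genes, 1.04 for the pyruvate dehydrogenase group, 1.07 for the pentose phosphate genes and 0.930 for the TCA cycle group. These steps thus differed from each other by less than the fold used to call a gene.

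Hif1a, the oxygen-regulated transcription factor that drives glycolytic genes in low oxygen, was the member with the lowest ratio. It stood at 269.5 CPM in KO and 409.6 in WT, from 6243 reads in KO and 4907 in WT, which made it 1.52-fold lower in KO (1.46 to 1.58) with a log2 ratio of -0.60. Only 5.17% of all measured genes had a lower ratio. The call sits at the edge of the threshold, and after removal of the GC trend the log2 ratio was -0.46, under 1.5-fold. The gene lies at chr12:73901375-73947530 on the plus strand (GRCm38), and its exons overlap Gm49321 on the same strand over 2.51% of their length and Gm15283 on the other strand over 5.60%, so that a few reads could belong to these.

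Its partners and controllers had ratios on both sides of 1. Arnt, the subunit that pairs with Hif1a, had 120 CPM in KO and 118 in WT. Egln1, the main oxygen-sensing prolyl hydroxylase that marks Hif1a for destruction, had 99.1 CPM in KO and 94.1 in WT, and Vhl, which recognises the mark, had 26.3 in KO and 29.7 in WT. Egln2, a further prolyl hydroxylase, had 34.4 CPM in KO and 24.7 in WT (ratio 1.39, 1.22 to 1.59), with a log2 ratio of 0.47 that was 0.04 after removal of the GC trend. Hif1an, a hydroxylase that blocks the activating part of Hif1a, had 42.0 CPM in KO and 51.9 in WT (ratio 0.808, 0.730 to 0.895). Egln3, a hydroxylase that is itself a textbook hypoxia target, had 7.81 CPM in KO and 10.3 in WT (log2 ratio -0.39). Myc, the other main promoter of glycolytic transcription in T cells, went the opposite way, with 225 CPM in KO and 130 in WT, 1.73-fold higher (1.63 to 1.83).

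Genes that hypoxia is known to induce through Hif1a had ratios on both sides of 1. Ldha, the lactate dehydrogenase subunit that favours making lactate, stood at 684 CPM in KO and 730 in WT (ratio 0.937, 0.913 to 0.962). Pgk1, an ATP-yielding enzyme of glycolysis, had 160 CPM in KO and 161 in WT, and Pdk1, the kinase that switches pyruvate dehydrogenase off, had 187 in KO and 171 in WT. Slc2a1, the ubiquitous glucose transporter, had 58.5 in KO and 51.3 in WT (ratio 1.14, 1.04 to 1.26). These 4 genes lay inside the looser threshold, on either side of 1. The rare hypoxia-inducible genes Hk2 (ratio 0.675, 0.501 to 0.911) and Egln3 (ratio 0.761, 0.602 to 0.965) were lower. Of similar rarity, Slc16a3 (ratio 0.991, 0.757 to 1.31) and Pfkfb4 of upper glycolysis (ratio 0.934, 0.695 to 1.26) had intervals that hold 1. The genes named here are a choice from the known targets. The remaining measured glucose transporter and glycolytic members went both ways. Slc2a3 (0.910), Pfkp (0.704), Gpi1 (0.828), Tpi1 (0.839), Aldoa (0.942), Pkm (0.969) and Pfkm (0.982) had ratios under 1. Hk1 (1.30), Gapdh (1.24), Pfkl (1.06) and Pgam1 (1.03) had ratios above 1. A link of the ratios in this paragraph to that of Hif1a was not tested.

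To show the sites through which such control is known to run, the promoter windows of Hif1a and Pygm, the members with the lowest and the highest ratio, and of the hypoxia targets Ldha and Pgk1 are printed here. Each runs from 250 bases before to 50 after a RefSeq transcription start (GRCm38.p6, plus strand, 5′ to 3′), at chr12:73907617-73907916 for Hif1a, chr19:6384158-6384457 for Pygm, chr7:46845554-46845853 for Ldha and chrX:106186850-106187149 for Pgk1. Capitals mark the letters ACGTG or their reverse complement CACGT, a form of the core of the hypoxia response element. Where both overlap they spell CACGTG, the E-box bound by Myc and related factors. Ldha has a further listed start whose window held no match to ACGTG or CACGT. The form of the core with G as its first letter, GCGTG, was not searched for and is left unmarked.
Hif1a: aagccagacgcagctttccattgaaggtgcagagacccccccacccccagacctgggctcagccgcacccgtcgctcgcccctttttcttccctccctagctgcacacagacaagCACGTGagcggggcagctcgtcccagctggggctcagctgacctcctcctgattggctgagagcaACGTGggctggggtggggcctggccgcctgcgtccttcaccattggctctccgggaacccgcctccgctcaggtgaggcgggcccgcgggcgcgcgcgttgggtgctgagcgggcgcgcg
Pygm: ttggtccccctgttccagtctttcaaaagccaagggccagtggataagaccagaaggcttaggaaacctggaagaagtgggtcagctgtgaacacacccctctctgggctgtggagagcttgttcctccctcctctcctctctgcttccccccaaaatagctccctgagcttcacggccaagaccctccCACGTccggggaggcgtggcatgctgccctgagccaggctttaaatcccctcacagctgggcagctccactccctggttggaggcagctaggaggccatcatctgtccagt
Ldha: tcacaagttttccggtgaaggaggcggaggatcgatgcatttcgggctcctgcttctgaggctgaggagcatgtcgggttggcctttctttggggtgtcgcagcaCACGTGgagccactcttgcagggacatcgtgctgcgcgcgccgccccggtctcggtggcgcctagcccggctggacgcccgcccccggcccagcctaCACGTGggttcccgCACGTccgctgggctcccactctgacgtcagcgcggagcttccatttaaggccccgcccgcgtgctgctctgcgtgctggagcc
Pgk1: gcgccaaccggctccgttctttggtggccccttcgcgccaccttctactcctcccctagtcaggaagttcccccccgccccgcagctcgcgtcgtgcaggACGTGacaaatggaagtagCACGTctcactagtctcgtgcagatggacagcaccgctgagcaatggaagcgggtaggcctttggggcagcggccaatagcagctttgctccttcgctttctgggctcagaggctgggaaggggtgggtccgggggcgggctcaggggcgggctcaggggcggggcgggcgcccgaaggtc

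In these windows the Hif1a promoter held ACGTG or its complement with first letters 135, 134 and 70 bases before the start, the Ldha promoter 145, 144, 48, 47 and 34 bases before it, the Pgk1 promoter 150 and 131 bases before it, and the Pygm promoter 61 bases before it. RefSeq windows were found for 38 of the 40 members, all but Slc2a3 and Idh3a. ACGTG or its complement occurred in at least a window of 19 of these 38 genes (50%). It occurred in 29.7% of 8388 measured genes with a window and 21.8% of all 27025 genes with a window. By window, it was in 46.4% of the 56 windows of the members and 19.6% of all 32851 windows. CACGTG occurred in 5 of the 38 (13.2%), compared with 12.1% of the measured genes. The median log2 ratio was -0.02 (range -0.60 to 1.51) for the 19 measured members with ACGTG or its complement, Hif1a among them. It was -0.06 (range -0.51 to 0.54) for the 18 without it, a difference that was not tested. A match describes letters only.

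The members hold both main glucose transporters of lymphocytes. Slc2a3, the high-affinity transporter of neurons and lymphocytes, had 126 CPM in KO and 139 in WT (ratio 0.910, 0.857 to 0.967), opposite in direction to Slc2a1. Slc2a1 accordingly took 31.7% of the reads of the pair in KO and 27.0% in WT. The Slc2a1-to-Slc2a3 read ratio, which needs no library scaling, was 1.26 times as high in KO as in WT (1.12 to 1.41). The log2 difference of 0.33 between the pair was 0.19 after removal of the GC trend.

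At the entry to glycolysis, the hexokinases lay on opposite sides of 1. Hk1, the constitutive hexokinase bound to mitochondria, had 331 CPM in KO and 256 in WT (ratio 1.30, 1.24 to 1.35). Hk2, the inducible form that rises with T cell activation, was rare, with 107 reads in KO and 82 in WT, or 4.62 CPM in KO and 6.85 in WT. It was 1.48-fold lower in KO (1.10 to 1.99), just inside the threshold. Hk2 made up 1.38% of hexokinase reads of this pair in KO (1.13 to 1.66) and 2.61% in WT (2.08 to 3.23), intervals that do not overlap. The Hk1-to-Hk2 ratio was 1.92 times as high in KO (1.42 to 2.59), and the log2 difference of 0.94 was 0.69 after removal of the GC trend. Hk1 itself had a log2 ratio of 0.06 with the trend removed and 0.37 without, while Hk2 had -0.63 with it removed and -0.56 without.

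Phosphofructokinase, the committed and most regulated step of glycolysis, differed in composition between the libraries. Pfkp, the platelet-type isozyme, had 91.9 CPM in KO and 130 in WT (ratio 0.704, 0.660 to 0.752). Pfkl, the liver-type isozyme, had 57.5 in KO and 54.2 in WT, and Pfkm, the muscle-type isozyme, had 21.7 in KO and 22.1 in WT, both with intervals that hold 1. Pfkp therefore took 53.7% of the reads of the trio in KO (52.2 to 55.3) and 63.1% in WT (61.2 to 65.0), and the Pfkl-to-Pfkp ratio was 1.51 times as high in KO (1.34 to 1.69). After removal of the GC trend the log2 difference between Pfkl and Pfkp was 0.31 in place of 0.59. Per length of messenger, Pfkp held 59.9% of the trio in KO and 68.7% in WT by the transcript with the longest coding sequence, but 31.2% in KO and 39.8% in WT by the union of all annotated exons. The direction of its shift was thus the same by either length. In WT Pfkp ranked first by either length, but in KO Pfkl (39.2%) stood above it by the union of exons.

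**Figure D2:**
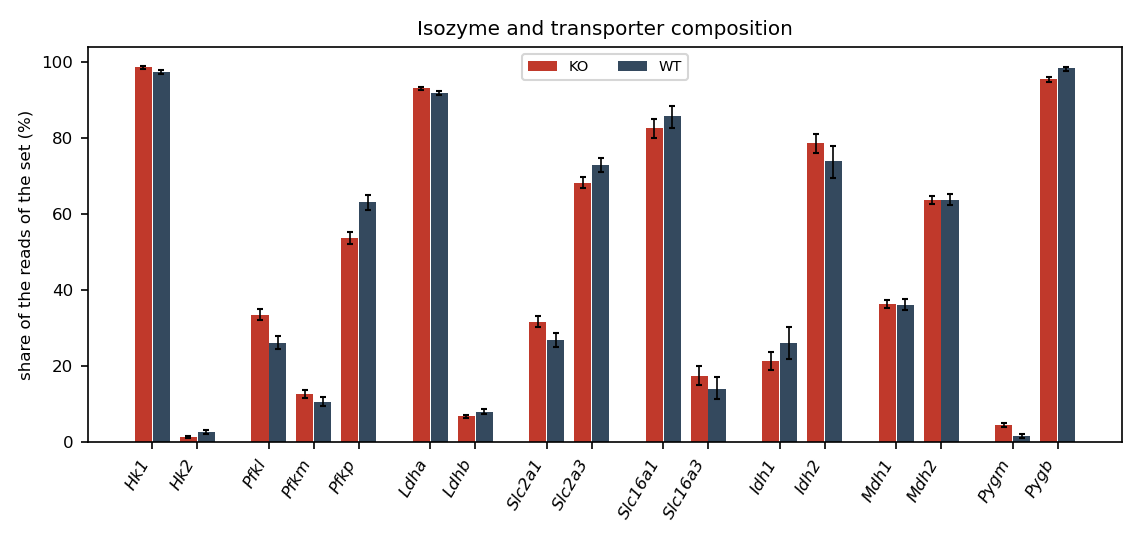
Share of the reads of each isozyme or transporter set, in percent, in KO (left bar of each pair) and WT (right bar); error bars are exact 95% intervals, counting error only. Pfkp held 53.7% in KO and 63.1% in WT, while the Mdh1 share was 36.3% in KO and 36.2% in WT.

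The other upper enzymes all had ratios under 1. Gpi1, which turns glucose-phosphate into fructose-phosphate, had 872 CPM in KO and 1053 in WT (ratio 0.828, 0.810 to 0.846). Tpi1, which interconverts the triose phosphates, had 44.7 in KO and 53.3 in WT (ratio 0.839, 0.759 to 0.927). Aldoa, the aldolase that cleaves the sugar, had 350 CPM in KO and 371 in WT (ratio 0.942, 0.908 to 0.977). With the GC trend removed the log2 ratios were -0.357 for Gpi1, -0.322 for Tpi1 and -0.306 for Aldoa. Gpi1 and Tpi1 then passed the looser threshold, as they did with scaling by total reads. Of the 8 upper genes 6 had a ratio under 1, with none past 1.5-fold.

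Lower glycolysis was level except for Gapdh, the dehydrogenase that yields NADH. Gapdh had 1025 CPM in KO and 830 in WT (ratio 1.24, 1.21 to 1.27). Of all 50-base words in its messenger, 90.4% also occur in transcripts of other genes, so its count depends on how shared reads were treated. Pgam1, the phosphoglycerate mutase, had 108 CPM in KO and 105 in WT. Pkm, the pyruvate kinase of T cells, had 911 in KO and 940.3 in WT (ratio 0.969, 0.947 to 0.991). The same sharing reached 72.2% for Eno1, 68.0% for Pgk1, 41.5% for Pgam1, 34.4% for Pkm and 30.3% for Pdhb, and 15.0% of the entries counted in KO and 15.6% in WT were reads aligned to several places and left out. Eno1b, an annotated gene that shares such words with Eno1, held 142 reads in KO and 54 in WT, and the glycolytic sum holds no Eno1 reads.

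Per length of the longest-coding transcript, Gapdh, Ldha, Pkm, Gpi1 and Aldoa had the highest levels in KO, in that order, and the same order held in WT. Gapdh stood at 805 CPM per kilobase in KO and 652 in WT, and Ldha at 377 in KO and 402 in WT. At the other end, Hk2 had 0.838 in KO and 1.24 in WT. Within a library these neighbours have no replicate spread, so only gaps that are wide can be read; Ldha and Pkm, at 377 and 375 in KO, cannot be ranked. This length was added after seeing the data. By the union of all annotated exons Gapdh stood above Ldha in KO (248 against 207 CPM per kilobase) but below it in WT (201 for Gapdh, 221 for Ldha).

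Among the lactate genes all 4 ratios were under 1. Ldhb, the subunit that favours the return of lactate to pyruvate, had 49.95 CPM in KO and 64.0 in WT (ratio 0.780, 0.711 to 0.856). Its share of lactate dehydrogenase reads was 6.81% in KO (6.43 to 7.19) and 8.06% in WT (7.52 to 8.63). Slc16a1, the proton-coupled lactate carrier of most cells, had 32.9 CPM in KO and 42.6 in WT (ratio 0.773, 0.690 to 0.866). Slc16a3, the carrier suited to export from glycolytic cells, had 161 reads in KO and 84 in WT, or 6.95 CPM in KO and 7.01 in WT, with an interval of 0.757 to 1.31. At these counts the Slc16a1-to-Slc16a3 ratio could not be told from equal in KO and WT (0.780, 0.578 to 1.05).

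The pyruvate dehydrogenase genes were level. Pdha1, the catalytic subunit that the kinases phosphorylate, had 129 CPM in KO and 128 in WT (ratio 1.01, 0.945 to 1.07), and Pdhb, its partner, had 74.0 in KO and 73.8 in WT. Pdk1 had a ratio of 1.09 (1.04 to 1.15). Outside the members, Mpc2, a subunit of the carrier that brings pyruvate into mitochondria, had 16.5 CPM in KO and 8.85 in WT and was 1.86-fold higher (1.499 to 2.33), whereas its partner Mpc1 had 12.3 in KO and 9.68 in WT (ratio 1.27, 1.02 to 1.58).

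In the pentose phosphate pathway the oxidative and non-oxidative members both straddled 1. G6pdx, the NADPH-producing entry enzyme, had 92.6 CPM in KO and 93.2 in WT, and Pgd, the next dehydrogenase, had 120 in KO and 111 in WT (ratio 1.09, 1.02 to 1.16). Of the enzymes that shuffle sugars back to glycolysis, Tkt had 223 CPM in KO and 187 in WT (ratio 1.19, 1.13 to 1.252), and Taldo1 had 113 in KO and 118 in WT. Rpia, which makes ribose-phosphate for nucleotides, had 17.4 CPM in KO and 22.3 in WT (ratio 0.783, 0.669 to 0.917). Rpe, which acts beside Rpia and is not a member, had 46.0 in KO and 61.2 in WT (ratio 0.751, 0.683 to 0.827).

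In the TCA cycle group 8 of 10 ratios were under 1, and 9 of 10 lay inside the looser threshold. With the GC trend removed, the log2 ratios of Idh3a (0.02), Sucla2 (0.06) and Fh1 (0.03) were above 0, beside those of Idh1 (0.29) and Idh2 (0.38). Log2 ratios below 0 were found for 26 of the 39 measured members and for 5298 of the 10899 measured genes. With the trend removed they were found for 24 of the 39 members and for 5650 of 10859 genes with a transcript. Cs, which joins acetyl-CoA to oxaloacetate, had 297 CPM in KO and 360 in WT (ratio 0.825, 0.794 to 0.857). Ogdh, the dehydrogenase of oxoglutarate, had 481 in KO and 486 in WT (ratio 0.989, 0.958 to 1.02). Idh3a, the catalytic subunit of the NAD-linked isocitrate dehydrogenase, had 70.5 in KO and 73.0 in WT, a ratio of 0.966 (0.889 to 1.05). Of the succinyl-CoA ligase subunits, Sucla2 had 36.4 CPM in KO and 38.2 in WT (ratio 0.955, 0.851 to 1.07). Suclg1 had 53.7 in KO and 58.9 in WT (ratio 0.913, 0.831 to 1.00), and the fumarase Fh1 had 45.5 in KO and 46.6 in WT (ratio 0.978, 0.882 to 1.09). The malate dehydrogenases kept pace with each other. Cytosolic Mdh1 had 121 CPM in KO and 134 in WT (ratio 0.900, 0.846 to 0.957), and mitochondrial Mdh2 had 212 in KO and 237 in WT (ratio 0.893, 0.853 to 0.936). Mdh1 took 36.3% of the reads of the pair in KO and 36.2% in WT.

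Idh2, the mitochondrial NADP-linked isocitrate dehydrogenase, had the highest ratio of this group. It had 39.6 CPM in KO and 27.3 in WT, from 918 reads in KO and 327 in WT, a ratio of 1.45 (1.28 to 1.65), inside 1.5-fold. After removal of the GC trend its log2 ratio of 0.54 became 0.38. Cytosolic Idh1, with 249 reads in KO and 115 in WT, had a ratio of 1.12 (0.894 to 1.41). The Idh1-to-Idh2 ratio was 0.771 times that in WT, with an interval of 0.594 to 1.00 that reaches equality.

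Pygm, the muscle-type glycogen phosphorylase, had the highest ratio of the members. It had 211 reads in KO and 38 in WT, or 9.11 CPM in KO and 3.17 in WT, and was 2.87-fold higher in KO (2.03 to 4.17), above 99.7% of measured genes. With the GC trend removed its log2 ratio was 1.37, against 1.51 without. Pygb, the brain-type form, held nearly all reads of the pair, with 192 CPM in KO and 196 in WT (ratio 0.980, 0.932 to 1.03), and Pygm took 4.54% of the pair in KO (3.96 to 5.18) and 1.60% in WT (1.13 to 2.18). Of 5 muscle markers, Tnnt3 had 16 reads in KO and 1 in WT, Ckm, Acta1 and Myh6 had 1 read each in KO and none in WT, and Myh4 had none in either, for a sum of 0.820 CPM in KO and 0.0835 in WT. Pygm shares no exon with another annotated gene at chr19:6384399-6398459, but its nearest coding neighbour on the same strand, Rasgrp2, begins 880 bases beyond its end and had 6228 reads in KO and 2481 in WT (ratio 1.30, 1.24 to 1.36). The part of muscle RNA or of the neighbour in the Pygm value was not tested.

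**Figure D3:**
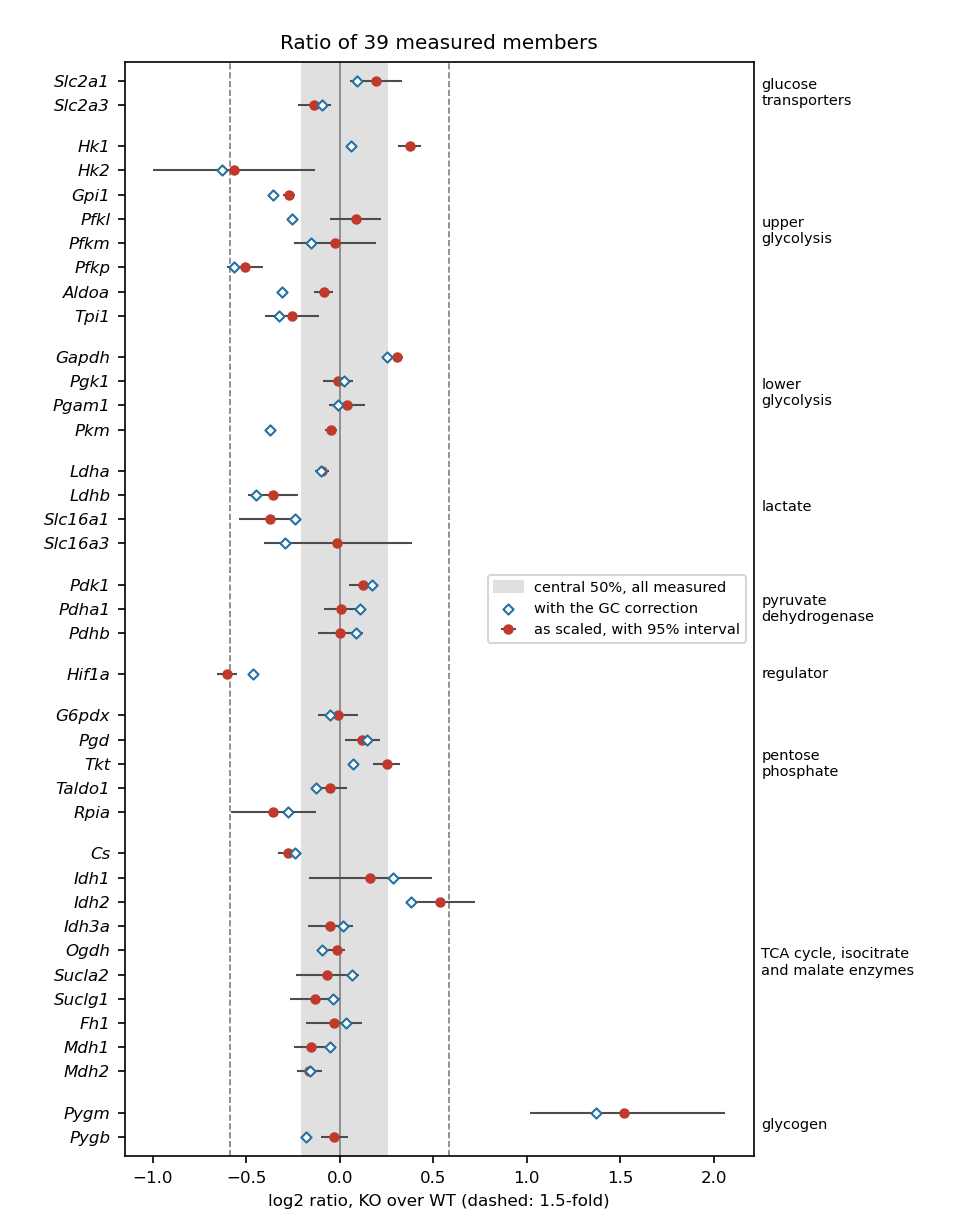
Log2 ratio of KO over WT for the 39 measured members by step; points are ratios without a pseudocount, bars are exact 95% counting intervals, open diamonds the value after removal of the GC trend, the grey band the central 50% of all measured genes and dashed lines 1.5-fold. Pygm (2.87-fold higher) and Hif1a (1.52-fold lower) lie beyond the dashed lines, and the diamonds of Hk1 and Pkm sit well left of their points.

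Across the members, 23 intervals left out a ratio of 1 (8 with KO higher, 15 with KO lower) and 16 held it. Among all measured genes, 29.1% had an interval that left out 1 with KO higher and 25.6% with KO lower. These intervals take no account of differences between mice or library preparations, so for deeply counted genes such as Pkm they leave out 1 at a difference of a few percent.

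The GC content of a gene's longest transcript went along with its ratio. Spearman's rho across the 39 members was 0.38, and 0.41 across 10859 measured genes with a transcript, as a description over genes that share both libraries. Among the 1086 genes of lowest GC content (median 39.6%) the median log2 ratio was -0.18, and among the 1086 of highest GC content (median 59.2%) it was 0.36. Hif1a had a GC content of 41.3%, the lowest of the measured members, and Pkm, at 57.7%, the highest. With the trend on GC content and length removed, the members' median was -0.09, Pygm remained higher and Hk2 became the lower call in place of Hif1a. The sign changed for Pfkl, Pgk1, Pgam1, Idh3a, Sucla2 and Fh1, whose largest absolute log2 ratio before was 0.08. Pkm, level on the scaled counts, had -0.37 after the removal.

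**Figure D4:**
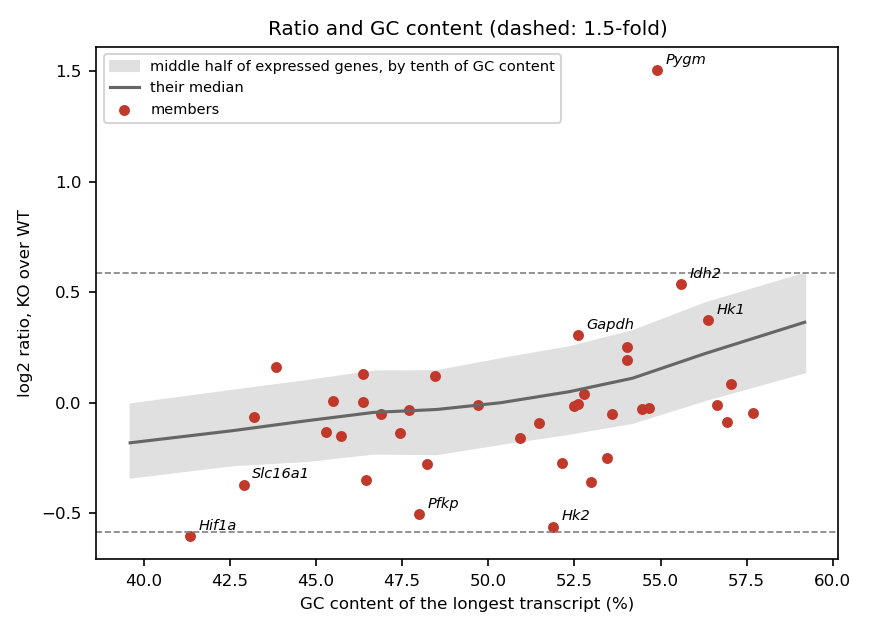
Log2 ratio of KO over WT against GC content of the longest transcript for the 39 measured members (points); the line is the median and the band the central 50% of all measured genes in 10 bins of GC content. The line climbs from -0.18 to 0.36, with Hif1a at the low-GC end and Pygm far above the band.

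Beyond the members, 86 other genes of the same pathways were followed, of which 71 were measured. Of these 6 were at least 1.5-fold higher in KO (Pfkfb1, Pgam2, Eno3, Mpc2, Myc and Pgls) and 2 lower (Aldoc and Pck2), against the 7.43% and 5.51% of all measured genes given above, and their median log2 ratio was -0.08. With the GC trend removed 4 were higher and 4 lower, where 4.35% of all genes with a transcript were higher and 5.81% lower. Pgls, the lactonase between G6pdx and Pgd, had 19.1 CPM in KO and 10.9 in WT (ratio 1.75, 1.44 to 2.14). With the GC trend removed its log2 ratio was 0.53, under 1.5-fold, and 20.6% of its exons overlap Fam129c on the same strand. Pck2, the mitochondrial enzyme that makes phosphoenolpyruvate from oxaloacetate, had 14.6 in KO and 22.8 in WT, 1.56-fold lower (1.33 to 1.84). Aldoc, the brain-type aldolase, had 42 reads in KO and 38 in WT, 1.75-fold lower (1.10 to 2.78). Pfkfb1, a maker and remover of the sugar bisphosphate that switches phosphofructokinase on, had 39 reads in KO and 11 in WT, and its interval of 0.921 to 3.97 holds 1.

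In the steps with no gene past 1.5-fold, the furthest were the transporter Slc2a8 (83 reads in KO and 35 in WT, log2 ratio 0.29), the lactate dehydrogenase of the D form Ldhd (91 reads in KO and 37 in WT, 0.34) and the glycogen synthase Gys1 (812 reads in KO and 308 in WT, 0.45). The intervals of Slc2a8 (0.817 to 1.88) and Ldhd (0.859 to 1.92) hold 1, and that of Gys1 (1.19 to 1.56) does not. With the GC trend removed the log2 ratios were -0.11 for Slc2a8, 0.22 for Ldhd and 0.25 for Gys1. Of the Ldhd exons, 42.2% overlap Znrf1 on the other strand. In the TCA cycle 13 of 16 other genes had a negative log2 ratio, with a median of -0.16, while 39 of all 71 other genes had a negative one. With the GC trend removed, Suclg2 (0.02) and Sdhc (0.01) turned positive, and 41 of all 71 other genes had a negative log2 ratio. Among the 16 were the 4 succinate dehydrogenase subunits. The lowest of these 4 ratios were those of Sdha, with 250.1 CPM in KO and 349 in WT (ratio 0.716, 0.688 to 0.746), and Sdhb, with 70.8 in KO and 91.8 in WT (ratio 0.771, 0.714 to 0.833). Sdhc had 61.7 CPM in KO and 63.3 in WT (ratio 0.974, 0.892 to 1.07), and Sdhd had 38.3 in KO and 43.4 in WT (ratio 0.882, 0.791 to 0.985). These subunits, and Arnt, Egln1, Egln2, Egln3, Hif1an, Vhl, Pfkfb4, Mpc1 and Rpe above, were named for their roles after their values were seen. Suclg2 was named for its change of sign.

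**Figure D5:**
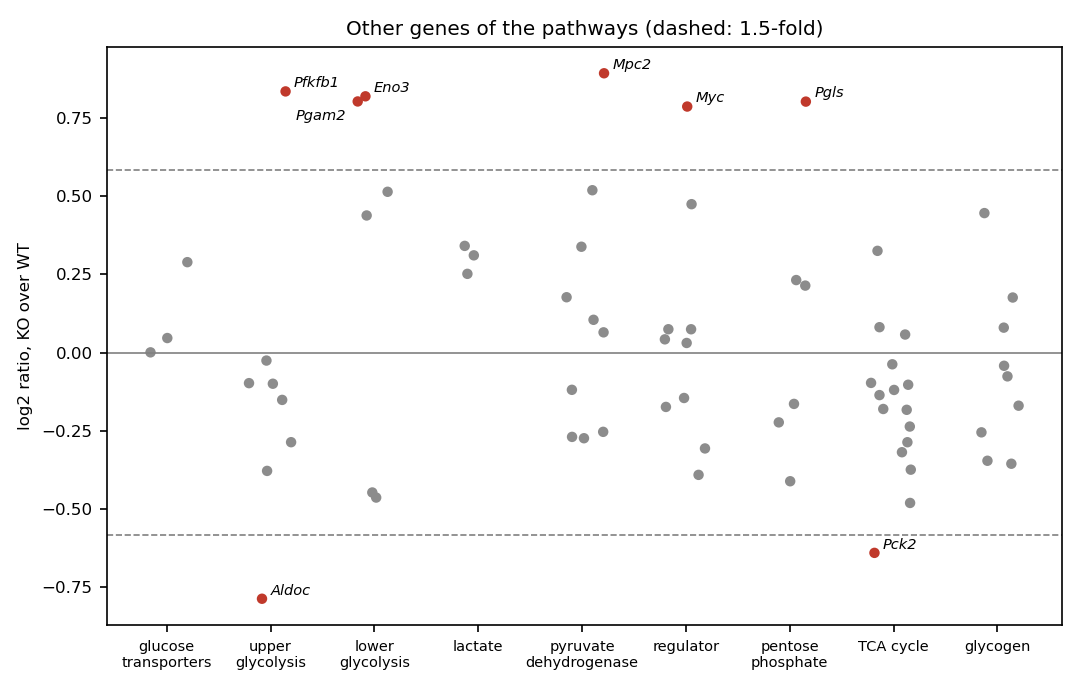
Log2 ratio of KO over WT for the 71 other measured genes of the same pathways by step; red points pass 1.5-fold (dashed lines) and are named. The 6 higher and 2 lower genes are spread over upper and lower glycolysis, the pyruvate dehydrogenase step, the regulators, the pentose phosphate pathway and the TCA cycle, and no glucose transporter, lactate or glycogen gene passes the lines.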

How the data were processed

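RNA was sequenced from 2 libraries of sorted mouse Treg cells, grouped as KO and WT by title and by the series' design text, since the genotype label is wild type for either sample. The targeted gene is not reported here. Per the labels' protocols, mRNA was isolated on beads from Trizol-extracted RNA, and a transposase kit made the libraries. The submitters' processing notes name HTSeq, TopHat2 2.0.3 and the build mm10; annotation, strand setting and read length were not given in the sources used. The authors deposited raw read counts per gene, not normalized. Categories outside genes (reads aligned to several places 15.0% of entries in KO and 15.6% in WT, outside exons 6.81% in KO and 6.26% in WT, shared between genes 1.57% in KO and 1.53% in WT) stayed out of library sizes.

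Counts were scaled with TMM factors (0.974 for KO, 1.03 for WT; edgeR 4.0.16, R 4.3.3), and log2 ratios were computed with a pseudocount of 1 for genes with a mean of at least 20 reads. Single-gene ratios carry no pseudocount and have exact conditional binomial (Clopper-Pearson) 95% intervals, which cover counting error only, since reads without molecular identifiers are not independent molecules. The ratio's interval and calling were tested on simulated data. GC content and length came from GENCODE M21 (GRCm38, the same assembly as mm10; 23730 of 24081 symbols and all 40 members matched), and the GC trend was a loess curve of span 0.3 on GC content and log length. Alternatives were DESeq2 1.42.0 size factors, total reads, removal of the GC trend, a pseudocount of 5, no filter and a looser log2 threshold of 0.32. Every member is named; of the other pathway genes, those past 1.5-fold or the furthest of a step with none. Tigar was found under an older symbol. The members and lists were chosen with earlier results of these data known.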

Additional observations from a re-analysis of the deposited data

How the results depend on the processing

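With no factor on total gene reads, 2 members (Hk2 and Hif1a) were lower in place of 1; at the looser log2 threshold of 0.32, 3 members were higher and 6 lower, and of the other pathway genes 14 were higher and 11 lower. With the GC trend removed 4 other pathway genes were lower in place of 2 and 4 were higher in place of 6; Hif1a (log2 ratio -0.46) passed under the threshold and Hk2 (-0.63) passed it. The cause was not tested. The members' median kept its sign, from -0.03 to -0.11 over the alternatives, and no member called by the scaled counts changed direction. Total-read scaling shifted the median of all measured genes by -0.08. The share of higher calls among all measured genes at 1.5-fold was 57.4%, against 45.1% with total reads and 42.8% with the GC trend removed; at the looser threshold it was 56.7%, against 42.2% and 46.7%, and among the members at that threshold 33.3%, against 18.2% and 22.2%. DESeq2 size factors and a pseudocount of 5 changed no 1.5-fold call among members or other genes; without the filter 9 other genes were higher and 3 lower. An isozyme length by the transcript with the longest coding sequence was added after seeing the data. No paired analysis was possible because each group has 1 library, and no replicate could be left out for the same reason. Hk2, Slc16a3, Idh1 and Pygm had the fewest reads and the widest intervals.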

Other observations

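Besides Pygm, the muscle-type forms of 2 lower glycolytic enzymes had high ratios, a grouping made after the values were seen. Eno3, the muscle-type enolase, had 69.5 CPM in KO and 39.3 in WT, 1.77-fold higher (1.59 to 1.96), and Pgam2, the muscle-type phosphoglycerate mutase, had 7.04 in KO and 4.01 in WT, 1.76-fold higher (1.27 to 2.48). With the GC trend removed the log2 ratio was 0.70 for Eno3 and 0.51 for Pgam2, which leaves Pgam2 under 1.5-fold. The nearest coding gene to Pgam2, Dbnl on the other strand, lies 677 bases away. Dbnl had 5687 reads in KO and 2195 in WT (ratio 1.34, 1.28 to 1.41), and its part in the Pgam2 value was not tested. The muscle-type phosphofructokinase Pfkm, with 21.7 CPM in KO and 22.1 in WT, had a ratio of 0.982 (0.844 to 1.14). Aldoa and Ldha, also muscle-type forms, had ratios of 0.942 (0.908 to 0.977) and 0.937 (0.913 to 0.962). The 5 muscle markers summed to 0.820 CPM in KO and 0.0835 in WT.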
